A study of Mus musculus with 21 samples.

Results

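The genes described here make or help to make reactive oxygen and nitric oxide in the gut epithelium. They are Nox1, Noxa1, Noxo1, Cyba, Rac1, Duox2, Duoxa2 and Nos2, which is 8 of the 55414 genes in the count table. The choice was made from earlier results of these data, in which Nox1, Noxa1 and Nos2 stood lower on zinc water, and the other 5 are subunits, partners or relatives of these. All 8 were found, and all 8 passed the filter on low counts that left 13070 genes for testing. The fall of Nox1, Noxa1 and Nos2 on zinc water is therefore a description here, and no gene of the 8 is given a p-value for zinc water. These 3 genes are given no p-value in any other comparison either, since all of them use the same libraries.

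Paneth cells are secretory cells at the base of the small intestinal crypts that release antimicrobial peptides. Such cells were sorted from mouse small intestine by flow cytometry and turned into bulk RNA-seq libraries, and the study's methods describe C57BL/6J mice with each sample drawn from a single animal. For 7 weeks the animals had ZnSO4 in their water, at 200 mM as the labels state it, or purified (Milli-Q) water alone. Specific pathogen free (SPF) mice gave 3 libraries on Milli-Q water and 3 on zinc water. SPF mice given broad-spectrum antibiotics over the final 3 of these weeks gave 4 libraries on each water. Germ-free mice, which were raised without microbes, gave 3 libraries on Milli-Q water and 4 on zinc water. No sample's labels name a genotype, age or sex. Each replicate is a labelled sample, and p-values measure the spread between these samples.

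NADPH oxidases pass electrons from NADPH to oxygen. Nox1 encodes the catalytic subunit of the oxidase of the gut epithelium, which yields superoxide. It works with the membrane partner encoded by Cyba, the organizer Noxo1, the activator Noxa1 and the small GTPase Rac1. Duox2 encodes a related enzyme that releases hydrogen peroxide at the luminal surface, and Duoxa2 the factor that brings it there. Nos2 encodes the inducible nitric oxide synthase, which makes nitric oxide from arginine. In the intestine Nox1, Duox2 and Nos2 are known as genes that microbes and inflammatory cytokines induce.

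The stretches of 250 bases before the annotated start of Nox1, Noxa1 and Nos2 are shown because these are the 3 genes on which the choice was made. They were read from the GRCm39 genome at the start of the canonical GENCODE M39 transcript and run 5′ to 3′ on the strand of the gene. Capitals mark the places that match a searched motif.
Nox1, chrX:133012604-133012853, minus strand: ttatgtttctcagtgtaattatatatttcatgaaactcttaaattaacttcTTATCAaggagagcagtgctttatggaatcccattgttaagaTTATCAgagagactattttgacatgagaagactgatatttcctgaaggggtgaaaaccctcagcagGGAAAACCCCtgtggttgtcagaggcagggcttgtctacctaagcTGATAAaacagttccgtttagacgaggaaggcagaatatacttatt
Noxa1, chr2:24985182-24985431, minus strand: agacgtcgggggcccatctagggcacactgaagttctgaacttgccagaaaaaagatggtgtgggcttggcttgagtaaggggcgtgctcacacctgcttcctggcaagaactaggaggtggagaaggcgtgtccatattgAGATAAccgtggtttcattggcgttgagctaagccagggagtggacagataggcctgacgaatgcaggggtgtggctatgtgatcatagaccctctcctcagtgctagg
Nos2, chr11:78811363-78811612, plus strand: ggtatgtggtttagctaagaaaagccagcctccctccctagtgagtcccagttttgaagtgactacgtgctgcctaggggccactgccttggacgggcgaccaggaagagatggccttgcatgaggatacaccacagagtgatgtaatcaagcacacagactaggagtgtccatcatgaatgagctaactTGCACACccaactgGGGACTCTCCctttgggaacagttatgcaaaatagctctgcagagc
The motifs were the kappaB consensus, the AP-1 motif TGANTCA, the interferon-activated motif (GAS) TTCNNNGAA, the GATA motifs AGATAA and TGATAA, the core of the metal response element as TGCACNC or TGCGCNC, and the TATA box TATAAA, each on both strands. Nox1 held 1 kappaB match and 3 GATA matches, Noxa1 held 1 GATA match, and Nos2 held 1 kappaB match and 1 metal response element core. Of the 21627 protein-coding genes with a sequence of this length, 4.2% held a kappaB match, 16.0% a GATA match and 21.9% a metal response element core. Among the other 5 genes, Cyba held 2 GATA matches, Duoxa2 held 1 TATA box and 1 AP-1 match, and Noxo1, Rac1 and Duox2 held none of these letters. A TATA box was found in 11.9% of the sequences, an AP-1 match in 6.2% and a GAS match in 7.7%. A match describes letters in this window and is no evidence of binding. The stretch of Nox1 lies in an intron of longer annotated Nox1 transcripts, that of Noxa1 overlaps an exon of the opposite-strand gene Gm75083, and that of Nos2 lies in an intron of the opposite-strand gene Gm71838.

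The libraries held 9888174 to 16896714 counts (median 12936001). Levels are in CPM, counts scaled to a common total with TMM factors, which set most genes equal between libraries, while marker sums below are in CPM of plain library totals. These factors lay between 0.523 and 0.834 in the germ-free libraries and between 0.997 and 1.49 in the others, while transcripts of Defa genes took 39.4% to 44.5% of counts in germ-free libraries and at most 36.45% elsewhere. Sums over 12 Paneth cell markers made up 30.4% to 54.0% of counts, with all 12 detected in each group. The summed level of 10 phagocyte markers was at most 25.0 CPM. Of these, Csf1r, Ly6g, S100a8 and Cd163 had 0 counts in all groups, and others were detected. After antibiotics the sum was 5.95 to 11.7 CPM on zinc water against 12.5 to 25.0 CPM on Milli-Q water, without overlap. With TMM factors, edgeR called 1 of 3 tested phagocyte markers lower there (median log2 fold change -0.54). Zinc libraries of SPF mice held more of 10 enterocyte markers, 1204 to 1873 CPM, than the Milli-Q libraries of SPF mice, 546 to 1115 CPM. They held less of 8 goblet markers (9423 to 9981 against 10460 to 15830 CPM), 8 enteroendocrine markers (74.4 to 120 against 142 to 280 CPM) and 8 stem and cycling markers (3766 to 4046 against 4223 to 5987 CPM). With TMM factors, edgeR called 1 of 10 enterocyte markers higher (median log2 fold change 2.09) and 1 of 8 goblet markers lower (median -0.61). It called 0 of 8 enteroendocrine markers (median -0.46) and 0 of 8 stem and cycling markers (median 0.07). Zinc libraries also had counts in fewer genes without overlap in SPF mice (16445 to 16707 against 16876 to 17814) and after antibiotics (15870 to 16558 against 17468 to 18072). Mitochondrial transcripts took 1.88% to 3.75% of counts on zinc water against 1.84% to 2.67% on Milli-Q water after antibiotics, and 1.19% to 2.78% against 0.599% to 1.21% in germ-free mice. With TMM factors, edgeR called 3 of 8 stem and cycling markers higher and 1 lower on zinc water after antibiotics (median 0.14). It also called lower 1 of 5 tuft markers (median -0.58) and 1 of 12 Paneth markers. Called higher were 1 of 10 enterocyte and 1 of 8 enteroendocrine markers. In germ-free mice it called 2 of 10 enterocyte markers (median 0.76) and 1 of 8 stem and cycling markers higher. There 1 of 12 Paneth markers was lower. The part of these markers and library measures in the zinc values of the genes below was not tested. Germ-free libraries held fewer counts of 6 tuft cell markers, 70.6 to 99.4 CPM against 115 to 447 elsewhere, and of 8 enteroendocrine markers, 39.6 to 70.8 CPM against 74.4 to 280 elsewhere. The SPF zinc library of replicate 1 stood apart with 6228 counts of Xist against at most 34 in any other library. The germ-free zinc library of replicate 4 stood apart from the other 3 of its group in several of the genes below, and it held the highest enterocyte marker sum of its group, 1780 CPM where the lowest was 402. Results that rest on either library are also given without it. The metallothioneins Mt1 and Mt2, which bind zinc, were higher on zinc water in every context, by 2.97 to 5.87 log2 units, so each group matched its label for the water.

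Nox1, the catalytic subunit, had the largest spread of fold changes between contexts among the 8 genes. In SPF mice its level was 11.3, 16.3 and 13.5 CPM in the 3 Milli-Q libraries and 1.06, 0.426 and 0.149 CPM in the 3 zinc libraries, from 166 to 320 counts and 2 to 13 counts respectively. Every zinc library thus lay far below every Milli-Q library, with a log2 fold change of -4.66 ± 0.71 (SE). Without SPF zinc replicate 1 the value was -5.52, and without SPF zinc replicate 3 it was -4.22. The number of genes with counts separated the same 2 groups of libraries. On plain library totals, so did the marker sums of enterocytes, goblet, enteroendocrine and cycling cells. With TMM factors the stem and cycling markers had a median log2 fold change of 0.07. The part of these measures in the SPF values of this and the next genes was not tested. After antibiotics the Milli-Q libraries stood at 7.31, 5.44, 6.33 and 12.9 CPM and the zinc libraries at 3.53, 3.34, 0.606 and 4.44 CPM. The groups again did not overlap, with a log2 fold change of -1.42 ± 0.49 (SE). Germ-free mice differed from this, since the level was already 3.88, 1.48 and 4.07 CPM on Milli-Q water. Their zinc libraries held 2.13, 0.109, 2.00 and 4.89 CPM, and the highest value of all 7 was that of zinc replicate 4. The log2 fold change was -0.47 ± 0.63 (SE) with overlapping groups, -1.28 without zinc replicate 4 and -0.05 without zinc replicate 2. In sorted bulk samples, fewer cells with a transcript and less of it per cell cannot be told apart.

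Noxa1, which activates the oxidase, was lower on zinc water by nearly the same factor in all contexts. SPF libraries held 32.7, 36.7 and 38.3 CPM on Milli-Q water and 13.9, 15.6 and 18.9 CPM on zinc water. After antibiotics the values were 38.5, 45.8, 36.7 and 34.8 CPM on Milli-Q water and 20.8, 16.96, 16.6 and 20.3 CPM on zinc water. Neither pair of groups overlapped. In germ-free mice 16.6, 35.1 and 28.8 CPM on Milli-Q water stood against 8.32, 10.6, 10.02 and 17.4 CPM on zinc water, and zinc replicate 4 lay above Milli-Q replicate 1. The log2 fold changes were -1.16 ± 0.22, -1.06 ± 0.19 and -1.19 ± 0.22 (SE) for SPF, antibiotics and germ-free. Without SPF zinc replicate 1 the first was -1.06, and without germ-free zinc replicate 4 the last was -1.46. With any 1 library left out the first ran from -1.29 to -1.06 and the last from -1.46 to -0.95.

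Nos2 showed the largest relative fall of the 8 genes in antibiotics-treated and germ-free mice, at low levels. On Milli-Q water SPF libraries held 4.49, 4.18 and 8.75 CPM, and on zinc water 0.896, 0.924 and 0.149 CPM, or 2 to 13 counts. After antibiotics 6.81, 9.24, 8.92 and 10.8 CPM stood against 0.371, 0.411, 0.606 and 2.02 CPM, the last being 31 counts in replicate 4 where the other 3 libraries had 6 to 9. Germ-free Milli-Q libraries held 1.81, 1.77 and 4.39 CPM, from 12 to 41 counts. Their zinc libraries held 0, 2, 6 and 9 counts, the highest being 0.956 CPM, and the count of 0 in replicate 1 allows up to 0.581 CPM (3 counts, counting error only). Zinc libraries lay below Milli-Q libraries in each context. The log2 fold changes were -3.14 ± 0.60 (SPF), -3.40 ± 0.49 (antibiotics) and -2.37 ± 0.66 (germ-free, all SE). Leaving out zinc replicate 4 moved the value to -4.26 after antibiotics and to -2.94 in germ-free mice, and leaving out SPF zinc replicate 1 moved the first to -3.41. With any 1 library left out the values ran from -3.49 to -2.67 (SPF), from -4.26 to -3.14 (antibiotics) and from -2.94 to -1.78 (germ-free).

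**Figure D1:**
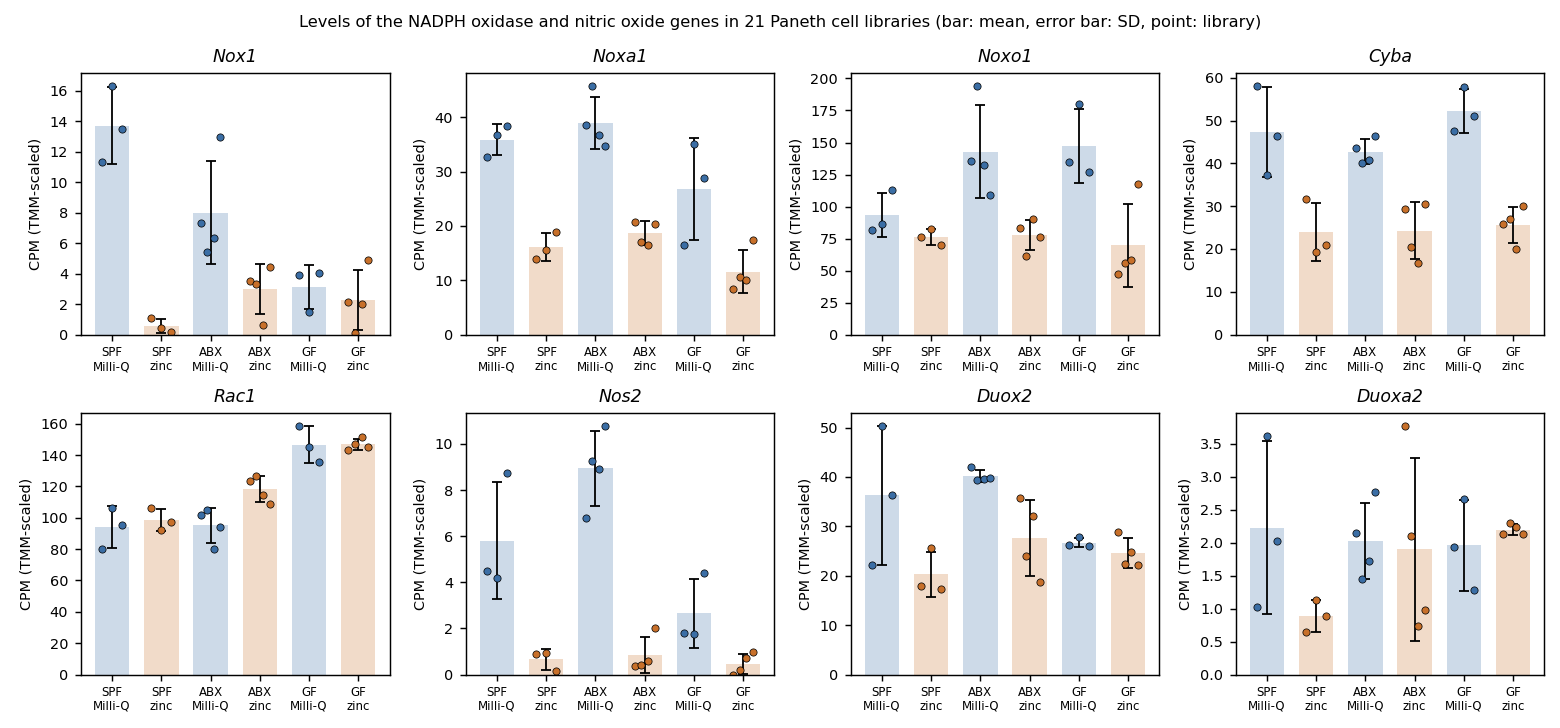
Each panel plots the level of 1 gene in CPM scaled by TMM factors (linear axis from 0) in the 6 groups of SPF, antibiotics-treated (ABX) and germ-free (GF) mice on Milli-Q (blue) or zinc (orange) water. Points are libraries, bars are means and error bars are SD (n = 3 or 4). Nox1, Noxa1, Cyba and Nos2 stand lower on zinc water in SPF mice without overlap, while Rac1 does not.

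Cyba, the membrane partner shared by several NADPH oxidases, lay lower on zinc water in each context without overlap. SPF libraries held 58.1, 37.3 and 46.5 CPM on Milli-Q water and 31.6, 19.3 and 20.97 CPM on zinc water. After antibiotics 43.6, 40.1, 40.9 and 46.4 CPM stood against 29.3, 20.6, 16.7 and 30.5 CPM. In germ-free mice the values were 47.6, 57.8 and 51.2 CPM on Milli-Q water and 25.7, 27.0, 19.9 and 30.1 CPM on zinc water. Its log2 fold changes were -0.98 ± 0.21, -0.82 ± 0.18 and -1.02 ± 0.20 (SE) in the order SPF, antibiotics and germ-free. The first was -1.23 without SPF zinc replicate 1 and -0.81 without SPF Milli-Q replicate 1.

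Noxo1, the organizer subunit, was lower on zinc water without overlap after antibiotics and in germ-free mice but not in SPF mice. In SPF mice its libraries at 81.6, 86.0 and 113 CPM on Milli-Q water overlapped with 76.0, 82.1 and 70.2 CPM on zinc water, with a log2 fold change of -0.30 ± 0.25 (SE). After antibiotics 135, 194, 132.5 and 109 CPM stood above 83.0, 61.6, 89.9 and 76.5 CPM, a log2 fold change of -0.88 ± 0.22 (SE). Germ-free mice had 135, 180 and 127 CPM on Milli-Q water and 47.4, 55.9, 57.9 and 117 CPM on zinc water, with the value of zinc replicate 4 far above the other 3 but still below each Milli-Q library. The log2 fold change was -1.07 ± 0.24 (SE), and -1.45 without that library. Without germ-free Milli-Q replicate 2 it was -0.90.

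Rac1, a small GTPase with many roles besides the oxidase, did not fall on zinc water. The SPF values were 80.3, 107 and 95.5 CPM on Milli-Q water and 106, 92.3 and 97.4 CPM on zinc water. After antibiotics the zinc libraries, at 124, 127, 114 and 109 CPM, lay above the Milli-Q libraries at 102, 105, 80.0 and 94.0 CPM. In germ-free mice 159, 145 and 136 CPM stood against 143, 147, 151 and 145 CPM. The log2 fold changes were 0.07 ± 0.13, 0.32 ± 0.11 and 0.00 ± 0.12 (SE).

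Duox2 and its partner Duoxa2 lie head to head on chromosome 2 and differed in level. In SPF mice Duox2 held 22.2, 50.4 and 36.4 CPM with Milli-Q water and 17.9, 25.6 and 17.3 CPM on zinc water, and the groups overlapped. After antibiotics all 4 Milli-Q libraries lay between 39.3 and 41.9 CPM, above the zinc libraries at 35.8, 24.0, 32.2 and 18.8 CPM. Germ-free libraries held 26.1 to 27.8 CPM on Milli-Q water and 22.2 to 28.8 CPM on zinc water. Log2 fold changes of Duox2 were -0.84 ± 0.23, -0.54 ± 0.20 and -0.13 ± 0.22 (SE) for SPF, antibiotics and germ-free mice. Duoxa2 was low, with 8 to 71 counts in each of the 21 libraries and group means between 0.894 and 2.22 CPM. Its groups overlapped in each context, and its log2 fold changes were -1.31 ± 0.52, -0.09 ± 0.42 and 0.18 ± 0.50 (SE).

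**Figure D2:**
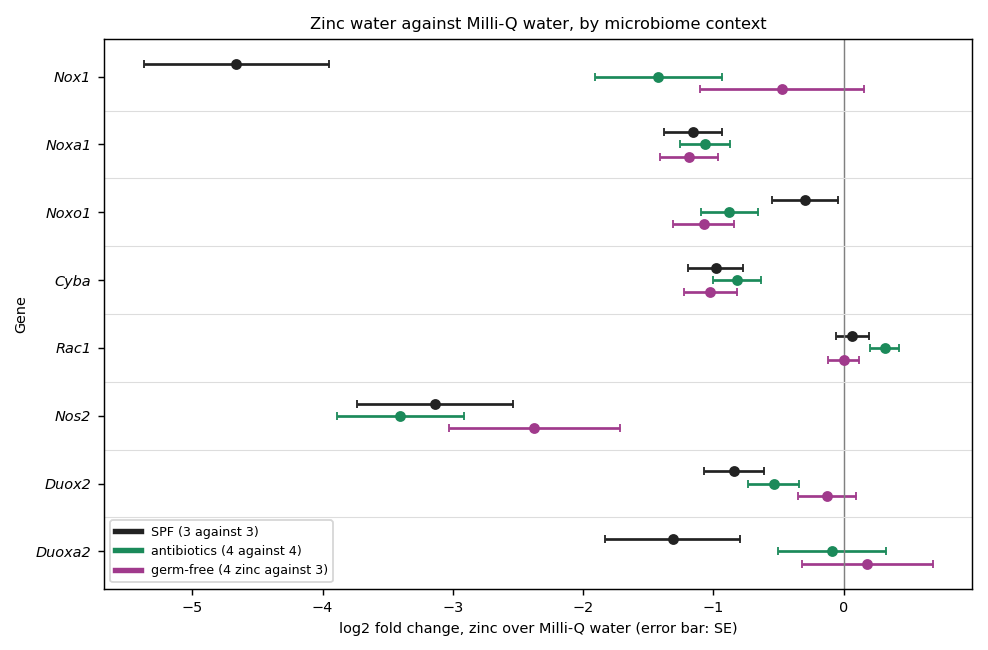
The plot gives the log2 fold change of zinc water over Milli-Q water (x axis, error bars SE) for the 8 genes (y axis) in SPF, antibiotics-treated and germ-free mice. Noxa1 and Cyba sit between -1.19 and -0.82 in all contexts, Nox1 runs from -4.66 in SPF to -0.47 in germ-free mice, and Rac1 stays between 0.00 and 0.32.

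Counted over the 8 genes, zinc libraries all lay below Milli-Q libraries for 4 genes in SPF mice (Nox1, Noxa1, Cyba and Nos2), for 6 after antibiotics (those 4 with Noxo1 and Duox2) and for 3 in germ-free mice (Noxo1, Cyba and Nos2). Over all 13070 genes tested the same was seen for 5.66, 13.6 and 8.80% in that order. Since 3 of the 8 were chosen from these contrasts, nothing is read from the counts. Averaged over the 3 contexts, the log2 fold changes were -2.97 ± 0.34 for Nos2, -2.19 ± 0.36 for Nox1, -1.13 ± 0.12 for Noxa1, -0.94 ± 0.11 for Cyba, -0.75 ± 0.14 for Noxo1, -0.50 ± 0.13 for Duox2, -0.41 ± 0.28 for Duoxa2 and 0.13 ± 0.07 for Rac1 (SE). Scaled by library totals alone, the directions on zinc water stayed as given for Nox1, Noxa1, Noxo1, Cyba, Nos2 and Duox2 in all contexts, while Rac1 turned to -0.16 in SPF mice.

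Whether zinc acted differently by context was given by the difference of the zinc effects. For Nox1 the effect was 3.24 ± 0.87 log2 units weaker after antibiotics than in SPF mice, 4.19 ± 0.96 weaker in germ-free than in SPF mice and 0.95 ± 0.80 weaker in germ-free than in antibiotics-treated mice (SE). Without SPF zinc replicate 1 the differences from SPF mice were 4.10 and 5.05. Without germ-free zinc replicate 4 the difference between germ-free and SPF mice was 3.39, and that between germ-free and antibiotics-treated mice was 0.14. These carry no test because Nox1 was chosen on the contrasts they are made of. The corresponding differences of Noxa1 were 0.09 ± 0.29, -0.03 ± 0.31 and -0.12 ± 0.29, and those of Nos2 were -0.26 ± 0.80, 0.76 ± 0.94 and 1.03 ± 0.87 (SE). For Nos2 the difference between antibiotics and SPF was -1.13 without antibiotics zinc replicate 4 and 0.10 without SPF zinc replicate 2. Leaving out germ-free zinc replicate 4 gave Nos2 differences of 0.20 from SPF and 0.46 from antibiotics-treated mice, the latter being 1.90 without antibiotics zinc replicate 4. With germ-free zinc replicate 4 left out, the differences of Noxa1 between germ-free mice and SPF or antibiotics-treated mice were -0.30 and -0.40. Without germ-free Milli-Q replicate 2 they were 0.20 and 0.11, and with library totals 0.36 and 0.21. The other 5 genes were tested, and edgeR called 0 of the 5 at an adjusted p of 0.05 in any of the 3 differences, against 0, 0 and 0.207% of all genes tested. DESeq2 also called 0 of the 5 in each. At an unadjusted p under 0.05 there were Noxo1, with a difference of -0.78 ± 0.35, and Duox2, with 0.72 ± 0.32 (SE), both between germ-free and SPF mice (edgeR adjusted p 0.345 and 0.346). Without germ-free zinc replicate 4 the difference of Noxo1 was -1.15 with an adjusted p of 0.0203.

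The microbiome contexts were also compared with SPF mice on each water. These comparisons use the libraries on which Nox1, Noxa1 and Nos2 were chosen, so values of those 3 genes carry no test here, and calls are counted over the other 5. On Milli-Q water, antibiotics gave calls for 0 of the 5 genes in edgeR's test, where 0.0459% of all genes were called higher and 0.153% lower. DESeq2 called 0 of 5 as well, and at an unadjusted p under 0.05 there was only Noxo1, with a log2 fold change of 0.61 ± 0.24 (SE, edgeR adjusted p 0.480). Levels of Nox1 on Milli-Q water were 13.7 ± 2.52 CPM for SPF (SD, n = 3) and 8.002 ± 3.37 CPM for antibiotics (SD, n = 4), a log2 fold change of -0.77 ± 0.49 (SE) with overlapping groups.

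On Milli-Q water germ-free mice had more Rac1 than SPF mice, by 0.64 ± 0.13 log2 units (SE, edgeR adjusted p 0.00123), but with library totals only its fold change turned to -0.34, when the median of all genes was -0.99, so that Rac1 lay 0.65 above that median. It was the 1 of the 5 genes called, also by DESeq2, against 12.7% of all genes higher and 11.6% lower. Scaling by library totals changed that balance from 1656 higher and 1515 lower genes to 74 and 9259. Of the genes not called, Noxo1 had a log2 fold change of 0.65 ± 0.25 (-0.32 with library totals) and Duox2 of -0.45 ± 0.23 (SE, edgeR adjusted p 0.0611 and 0.162). Without SPF Milli-Q replicate 1 that of Duox2 was -0.73, with an adjusted p of 0.0213. Nox1 stood at 3.14 ± 1.44 CPM in these germ-free mice (SD, n = 3), and all 3 of their libraries lay below all 3 SPF libraries. Its log2 fold change was -2.10 ± 0.59 (SE), or -3.07 with library totals, and lay between -2.33 and -1.78 with 1 library left out. Noxa1 and Nos2 had -0.42 ± 0.22 and -1.10 ± 0.53 (SE) with overlapping groups, and with 1 library left out the values ran from -0.66 to -0.18 and from -1.70 to -0.69. The lower tuft and enteroendocrine sums of germ-free mice are on plain library totals, as is that of 8 stem and cycling markers, 1474 to 2102 CPM against 4223 to 5987 in SPF mice on this water. With TMM factors, edgeR called 2 of 5 tuft markers lower (median log2 fold change -0.42), 4 of 8 enteroendocrine markers lower and 1 higher (median -1.46), 3 of 8 stem and cycling markers lower and 1 higher (median -0.50), and 10 of 12 Paneth markers higher and 1 lower (median 1.42). The part of these markers in the differences of the 8 genes was not tested.

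On zinc water SPF libraries, the highest in Nox1 on Milli-Q water, were the lowest at 0.545 ± 0.467 CPM (SD, n = 3). After antibiotics Nox1 stood at 2.98 ± 1.65 CPM (SD, n = 4), a log2 fold change of 2.47 ± 0.71 (SE). The groups overlapped, since the lowest library after antibiotics, at 0.606 CPM, lay below the highest SPF library, at 1.06 CPM. With 1 library left out the value ran from 2.02 to 3.33, the highest without SPF zinc replicate 1. The summed enterocyte markers were 561 to 837 CPM after antibiotics against 1204 to 1873 in SPF mice on this water, and their part in this difference was not tested. Of the 5 genes tested, edgeR called 0 after antibiotics, where 4.76% of all genes were higher and 4.21% lower. DESeq2 also called 0, and at an unadjusted p under 0.05 there were Rac1, with 0.26 ± 0.12, and Duoxa2, with 1.08 ± 0.50 (SE, edgeR adjusted p 0.166 and 0.171). In germ-free mice on zinc water Nox1 stood at 2.28 ± 1.97 CPM (SD, n = 4), 2.10 ± 0.76 log2 units (SE) from SPF mice with overlapping groups, 1.29 without germ-free zinc replicate 4 and 2.95 without SPF zinc replicate 1. Rac1 was the 1 gene of the 5 called there, at 0.57 ± 0.12 log2 units higher (SE, edgeR adjusted p 0.00928), against 3.47% of genes higher and 2.38% lower, but -0.03 with library totals only, when the median of all genes was -0.61. That call was also lost in the fit of only the groups compared and without SPF zinc replicates 2 or 3 (adjusted p up to 0.0886 without a library). With library totals the called genes numbered 32 higher and 6276 lower in place of 453 and 311. Duoxa2 had a log2 fold change of 1.28 ± 0.52 there (SE, edgeR adjusted p 0.133). Noxa1 had -0.45 ± 0.22 (SE), or -0.73 without germ-free zinc replicate 4 and -0.33 without SPF zinc replicate 3, and its groups overlapped. Nos2 had 0.35 ± 0.64 after antibiotics and -0.33 ± 0.75 in germ-free mice (SE), which became -0.52 and -0.90 when zinc replicate 4 of the respective group was left out. With any 1 library left out they ran from -0.52 to 0.71 and from -0.90 to -0.003.

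**Figure D3:**
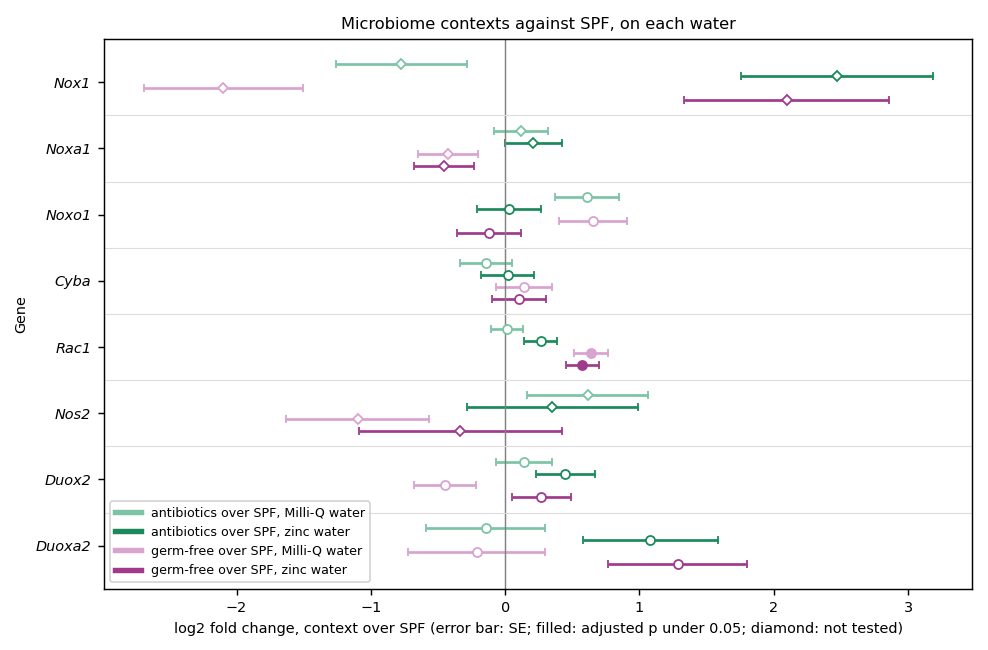
The plot gives log2 fold changes of antibiotics-treated or germ-free over SPF mice (x axis, error bars SE) on Milli-Q or zinc water for the 8 genes (y axis), with filled points where the adjusted p was under 0.05 and diamonds for Nox1, Noxa1 and Nos2, which carry no test. Nox1 lies at -2.10 in germ-free mice on Milli-Q water and at 2.47 after antibiotics on zinc water, and Rac1 at 0.64 and 0.57 in germ-free mice with TMM factors but at -0.34 and -0.03 with library totals.

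Ordered by level, Nox1 ran from SPF Milli-Q over antibiotics Milli-Q, germ-free Milli-Q, antibiotics zinc and germ-free zinc to SPF zinc, and among neighbors only antibiotics Milli-Q and germ-free Milli-Q did not overlap. For Cyba the only gap lay between antibiotics Milli-Q at 42.8 ± 2.88 CPM and germ-free zinc at 25.7 ± 4.24 CPM (SD, n = 4 each), so that all Milli-Q groups stood above all zinc groups. Rac1 had gaps below germ-free Milli-Q and below antibiotics zinc, and Noxa1, Noxo1, Nos2, Duox2 and Duoxa2 had none between neighbors.

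To compare genes with each other, counts were divided by the length of the canonical transcript (TPM), within a group only. In SPF mice on Milli-Q water the subunits of the Nox1 oxidase stood at 68.4 ± 3.03 TPM for Cyba, 44.0 ± 10.5 for Noxo1, 27.0 ± 8.84 for Rac1, 26.0 ± 6.23 for Noxa1 and 6.45 ± 2.43 for Nox1 (SD, n = 3). The catalytic subunit was thus the scarcest of the 5. The zinc libraries of SPF mice had 27.5 ± 4.77 TPM of Cyba, 28.2 ± 4.44 of Noxo1, 21.7 ± 0.693 of Rac1, 9.14 ± 1.94 of Noxa1 and 0.188 ± 0.145 of Nox1 (SD, n = 3). Duox2 held 7.35 ± 4.14 TPM, Duoxa2 1.77 ± 1.34 and Nos2 1.61 ± 0.672 on Milli-Q water in these mice (SD, n = 3).

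The 8 genes did not move as a block across libraries. Over the 21 libraries, the Pearson correlation of log-CPM was 0.869 between Noxa1 and Nos2, 0.734 between Nox1 and Nos2 and 0.580 between Duox2 and Duoxa2, and it was -0.557 between Noxa1 and Rac1. With group means removed the values became 0.316, 0.391, 0.593 and -0.06. Noxa1 and Noxo1 had the highest value without group means, 0.694. These are descriptions over libraries that share groups and scaling.

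The genes whose pattern was most like that of each of the 3 genes were found in the same way. For Nox1 these were Cd177, Slc39a4 (a zinc transporter), Tnfsf13os, Ceacam10 and Casp4 (an inflammatory caspase), with Pearson correlations from 0.790 down to 0.707 over 21 libraries. Noxa1 was most like Sirt6, Ccdc137, Dmpk, Aars2 and Arhgap27, from 0.896 to 0.875. Nos2 was most like Zc3h12a (an RNase that limits inflammatory transcripts), Casp4, Pxdn, Dus2 and Sppl2b, from 0.869 to 0.841.

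The wider pathway was read from 7 lists of 111 related genes, of which 89 were tested. On zinc water edgeR called 1 of the 89 in SPF mice at an adjusted p of 0.05, 26 after antibiotics (18 higher, 8 lower) and 14 in germ-free mice (9 higher, 5 lower). Over all genes tested, 0.0612% were higher and 0.0765% lower in SPF mice, 10.2 and 11.5% after antibiotics and 5.88 and 5.47% in germ-free mice. The median log2 fold change of the 89 was -0.04, 0.10 and 0.05 in these contexts, beside -0.02, 0.01 and -0.02 over all genes. The germ-free calls depended on few libraries, with 0 of the 89 called without Milli-Q replicate 2, and 0 when the fit held just the 7 germ-free libraries. Across the 3 contexts together 13 of the 89 were higher and 10 lower, where 10.7% of all genes were higher and 11.2% lower. The 26 and the 14 genes shared 5 that moved in the same direction, which is 19.2% of the 26 and 35.7% of the 14. Of these, Cd14, Nfkbia and Pxdn were lower, and Nadk2 and Slc7a1 higher. After antibiotics Cd14, Nadk2 and Slc7a1 are named only because their values were seen.

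The 21 tested genes linked to the induction of Nox1, Duox2 or Nos2 code for receptors, signaling factors and transcription factors. On zinc water after antibiotics 6 of them were lower, including the NF-kB inhibitor Nfkbia, and 0 higher. Over all genes tested 11.5% were lower and 10.2% higher. Cd14, a co-receptor for bacterial lipopolysaccharide, was the 1 related gene called in SPF mice, at 5.43 ± 1.24 CPM on Milli-Q water and 1.75 ± 0.390 CPM on zinc water (SD, n = 3 each), a log2 fold change of -1.64 ± 0.33 (SE, edgeR adjusted p 0.0445) that was lost in 5 of 6 fits without a library. Its log2 fold change was -1.64 ± 0.28 after antibiotics and -1.13 ± 0.32 in germ-free mice (SE, edgeR adjusted p 0.00130 and 0.0292). Nfkbia, the inhibitor and target of NF-kB, fell from 45.9 ± 8.58 to 22.6 ± 1.18 CPM after antibiotics (SD, n = 4 each), a log2 fold change of -1.02 ± 0.14 (SE, edgeR adjusted p 0.000500). In SPF mice its change was -0.59 ± 0.16 (SE, adjusted p 0.241), and in germ-free mice -0.53 ± 0.15 (SE, adjusted p 0.0303). Irf1, a transcription factor of interferon responses, fell from 67.5 ± 5.08 to 35.0 ± 3.42 CPM after antibiotics (SD, n = 4 each), a log2 fold change of -0.95 ± 0.13 (SE, edgeR adjusted p 0.000792). In germ-free mice 2 genes of this list were lower, Cd14 and Nfkbia, and 3 higher, namely Il22ra1 by 1.15 ± 0.30, Hif1a by 0.80 ± 0.24 and Ifngr2 by 0.48 ± 0.15 (SE, edgeR adjusted p 0.0213 to 0.0412), Ifngr2 being named after its value was seen. Over all genes tested 5.47% were lower and 5.88% higher. Libraries overlapped for Il22ra1 and Hif1a. The germ-free calls of Cd14, Nfkbia, Il22ra1 and Hif1a were each lost in 5 of 7 fits without a library.

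Of 19 tested genes that remove peroxide and superoxide, 6 were called higher after antibiotics on zinc water and 0 lower. Over all genes tested 10.2% were higher and 11.5% lower there. With library totals only, that contrast had 152 genes higher and 1295 lower, and 13 in place of 26 related genes were called. Prdx1, a peroxiredoxin, went from 237 ± 15.6 to 398 ± 43.6 CPM (SD, n = 4 each), a log2 fold change of 0.75 ± 0.12 (SE, edgeR adjusted p 0.00114), and Gsr, glutathione reductase, rose by 0.74 ± 0.16 (SE, adjusted p 0.00331), a call lost with library totals. In germ-free mice 1 of 19 rose, where 5.88% of all genes tested were higher. This was Cat, the catalase gene, by 0.63 ± 0.16 (SE, edgeR adjusted p 0.0179), a call lost in 2 of 7 fits without a library. In SPF mice 0 of these 19 were called. Of the 13 genes that supply NADPH, 6 were called higher after antibiotics and 0 lower, beside the same 10.2% and 11.5% over all genes tested. Me1, malic enzyme, rose by 2.92 ± 0.59 and Idh1, an isocitrate dehydrogenase, by 0.75 ± 0.17 log2 units (SE, edgeR adjusted p 0.00266 and 0.00561), Me1 from 0.427 ± 0.154 to 3.26 ± 2.93 CPM (SD, n = 4 each). Nadk2, which makes mitochondrial NADP, rose in germ-free mice by 0.98 ± 0.20 and Pgls fell by 0.60 ± 0.17 (SE, edgeR adjusted p 0.0108 and 0.0292). Libraries overlapped for Pgls, and its call was lost in 5 of 7 fits without a library, that of Nadk2 in 1 of 7.

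Of 16 tested genes of nitric oxide and arginine metabolism, 6 were called higher on zinc water after antibiotics and 0 lower. Over all genes tested 10.2% were higher and 11.5% lower. Odc1, which makes putrescine from ornithine, rose by 0.59 ± 0.11 and Qdpr, which recycles the cofactor tetrahydrobiopterin, by 0.40 ± 0.09 (SE, edgeR adjusted p 0.00163 and 0.00588), and both calls were lost with library totals. Averaged over contexts, Arg2, an arginase, rose by 1.03 ± 0.23 and Slc7a1, an arginine transporter, by 0.43 ± 0.10 (SE, edgeR adjusted p 0.00501 and 0.00449). The other nitric oxide synthases Nos1 and Nos3 had at most 2 counts in any library. In germ-free mice Slc7a1 rose by 0.62 ± 0.17 and Asl fell by 0.50 ± 0.16 (SE, edgeR adjusted p 0.0254 and 0.0443). Zinc and Milli-Q libraries overlapped for both genes. Their calls were lost in 4 of 7 (Slc7a1) and 5 of 7 (Asl) fits without a library.

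Other NADPH oxidase genes were called for 0 of 6 tested in each context, and Rac3, a relative of Rac1, had a log2 fold change of -0.82 ± 0.24 over the contexts together (SE, edgeR adjusted p 0.0198). Cybb, the catalytic subunit of phagocytes, had 0 counts in all libraries, as did Nox3. Of 13 Rac activators and inhibitors, Vav2 was the 1 that changed after antibiotics, by -0.47 ± 0.12, and in germ-free mice Tiam1 and Vav3 rose by 0.83 ± 0.16 and 1.23 ± 0.33 (SE, edgeR adjusted p 0.00787, 0.0101 and 0.0243). The germ-free calls were lost in 1 of 7 fits without a library for Tiam1 and in 3 of 7 for Vav3. Dock1, named after its value was seen, rose there by 0.71 ± 0.20 (SE, adjusted p 0.0302). Pxdn, peroxidasin, was the 1 of 5 genes tested in the list of peroxidases and thyroid-type partners. After antibiotics it fell from 18.3 ± 2.96 to 7.78 ± 1.38 CPM (SD, n = 4 each), a log2 fold change of -1.24 ± 0.22 (SE, edgeR adjusted p 0.00148). In germ-free mice its log2 fold change was -1.18 ± 0.27 (SE, edgeR adjusted p 0.0131). Pxdn lost that call in 1 of 7 fits without a library and in the fit of only the groups compared. In SPF mice its change was -0.98 ± 0.26 (SE, adjusted p 0.204).

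**Figure D4:**
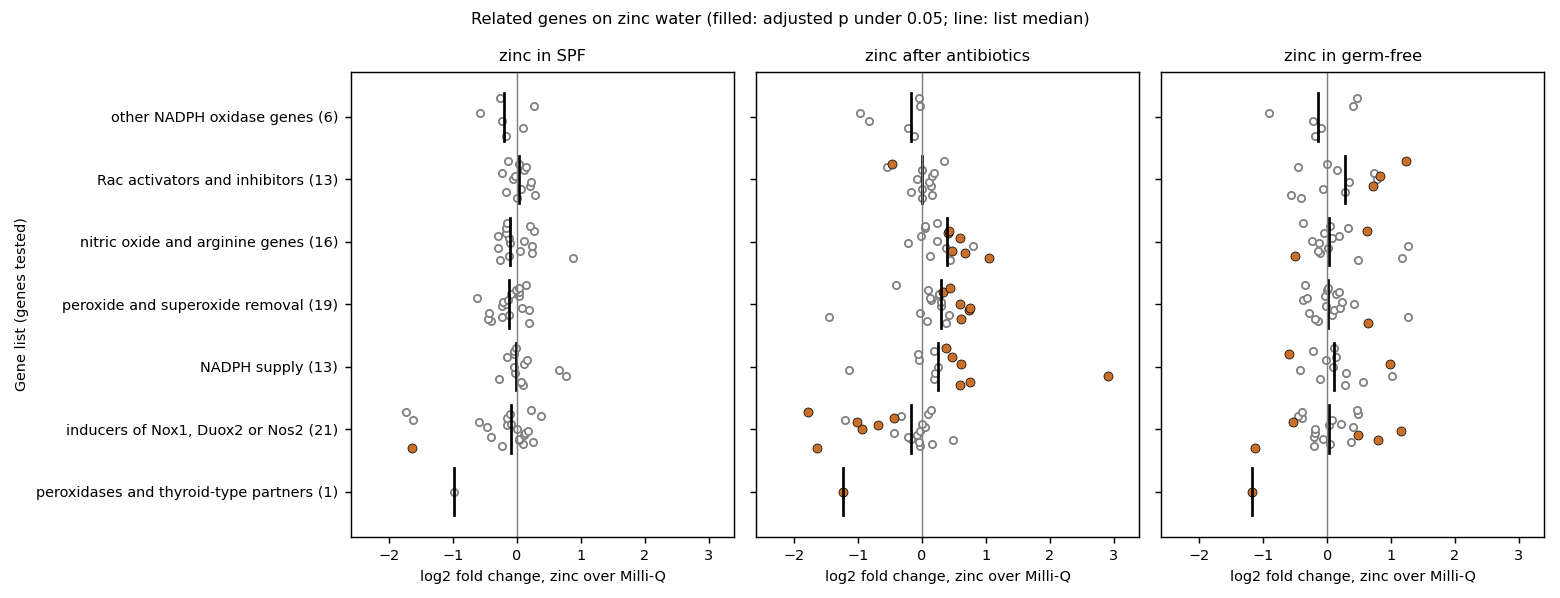
Each panel plots the log2 fold change of zinc over Milli-Q water (x axis) for the related genes tested, by list (y axis), in SPF, antibiotics-treated and germ-free mice. Filled points passed an adjusted p of 0.05 and vertical lines are list medians. The 26 filled points after antibiotics lie on the right for the peroxide, NADPH and arginine lists, and on the left for the list labelled inducers (which includes the inhibitor Nfkbia), Vav2 and Pxdn.

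Between contexts, 0 of the 89 related genes were called by antibiotics on Milli-Q water (11 at an unadjusted p under 0.05, and 0 by DESeq2), 13 by antibiotics on zinc water (11 higher, 2 lower), 23 in germ-free mice on Milli-Q water (14 higher, 9 lower) and 7 in germ-free mice on zinc water (6 higher, 1 lower) in edgeR's test. Over all genes tested the shares higher and lower were 0.0459 and 0.153%, 4.76 and 4.21%, 12.7 and 11.6%, and 3.47 and 2.38% in that order. With library totals only, the counts were 7, 71 and 27 in place of 13, 23 and 7. In germ-free mice on Milli-Q water, Il22ra1, a receptor of interleukin 22, had a log2 fold change of -1.11 ± 0.31 (SE, edgeR adjusted p 0.0127), a call lost in 1 of 6 fits without a library. Tiam1 had a log2 fold change of -1.04 ± 0.17 there (SE, edgeR adjusted p 0.000188). For a difference of the zinc effect between contexts edgeR called 0 of the 89 in each of the 3 tests, with 24, 12 and 24 genes at an unadjusted p under 0.05 and 6, 0 and 2 called by DESeq2 for antibiotics against SPF, germ-free against SPF and germ-free against antibiotics. Over all genes edgeR called 0, 0 and 27 such differences, with 2418, 1740 and 2140 at an unadjusted p under 0.05, and DESeq2 called 260, 31 and 289.

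Several of the 8 genes overlap others on the genome. Gene spans in GRCm39 are chromosome X, 132987170 to 133122705, for Nox1, chromosome 2, 24975679 to 24985181, for Noxa1 and chromosome 11, 78811613 to 78851080, for Nos2. The others are on chromosome 17, 24914682 to 24919504 (Noxo1), chromosome 8, 123150422 to 123159706 (Cyba), chromosome 5, 143489389 to 143514493 (Rac1), and chromosome 2, 122109728 to 122128930 (Duox2) and 122129380 to 122133366 (Duoxa2). The table names the genes ENSMUSG00000031257 (Nox1), ENSMUSG00000036805 (Noxa1), ENSMUSG00000019320 (Noxo1), ENSMUSG00000006519 (Cyba), ENSMUSG00000001847 (Rac1), ENSMUSG00000020826 (Nos2), ENSMUSG00000068452 (Duox2) and ENSMUSG00000027225 (Duoxa2). Xkrx overlaps Nox1 on the same strand. Opposite-strand genes overlap Nox1 (Cstf2 and Arl13a), Noxa1 (Entpd8), Noxo1 (Gfer and Tbl3), Cyba (Il17c), Rac1 (Daglb and Gm42502), Nos2 (Gm71838) and Duoxa2 (Duoxa1). The libraries keep strand, but the sources used here do not say whether the counting used it, so reads of such pairs cannot be told apart from these files.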

How the data were processed

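The deposited table holds raw counts of reads per gene in 21 libraries. Per the labels' processing notes the authors used FastQC 0.12.0, STAR 2.7.0a, DESeq2 and the mm39 build. The tool that made the counts, and whether it used strand, are not given in the sources used here. Gene names came from GENCODE M39 by identifier, and 665 identifiers without a match held 0.0164% of counts.

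All 21 libraries entered 1 edgeR 4.0.16 quasi-likelihood fit in R 4.3.3 (limma 3.58.1) with a coefficient per group, TMM factors and the filterByExpr filter, which kept 13070 genes. Calls passed a Benjamini-Hochberg adjusted p of 0.05 over all of these. There were 11 comparisons, namely 4 of zinc water, 4 of context and 3 differences of zinc effects. SE is the standard error of the fitted log2 fold change. Intervals from counts cover counting error only. DESeq2 1.42.0, other scalings, other filters, a replicate block and leaving out each library were tried as alternatives. The script was tested on simulated data. Correlations used log2 CPM with a prior count of 2. Figures were drawn with matplotlib 3.10.9.

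The 8 genes and the related lists were chosen with earlier results of these data known. The plan had tests of all 8 genes between contexts, but p-values of Nox1, Noxa1 and Nos2 were left out because these comparisons use the libraries on which they were chosen. Related genes are named by a rule: up to 2 per list, comparison and direction with the smallest adjusted p and a mean of at least 1 CPM. For likeness, the 5 genes with the highest Pearson correlation and a mean of at least 5 CPM are named. Same-numbered libraries were not found to be paired. 1 result among the related genes is not reported here.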

Additional observations from a re-analysis of the deposited data

Results flagged for a closer look

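A library far from the others of its group was searched for in 24 sets of values (8 genes in the 3 groups of 4 libraries), and chance picks out about 1 in 20 such sets. Noxo1 in germ-free mice on zinc water stood at 117.47 CPM in replicate 4, and its gap to the next library was 0.851 of the range of the group. Nos2 after antibiotics on zinc water stood at 2.0225 CPM in replicate 4, with a gap of 0.858 of the range.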

How the results depend on the processing

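Size factors of the DESeq2 type and TMM factors without the Defa genes moved none of the counts by over 1.5 times and reversed no fold change of the 8 genes. Where other settings did, the cause was not tested.

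With DESeq2, genes called went from 18 to 40 for zinc in SPF mice (related genes 1 to 2), 26 to 49 for antibiotics on Milli-Q water and 764 to 1195 for germ-free on zinc water (related 7 to 13). For the differences of zinc effects they went from 0 to 260 (related 0 to 6) for antibiotics minus SPF, 0 to 31 for germ-free minus SPF and 27 to 289 (related 0 to 2) for germ-free minus antibiotics. Without a filter on low counts the genes called were 269 (related 7) for zinc in SPF mice, 406 (related 3, members 1) for antibiotics on Milli-Q water, and 675 (related 6), 429 (related 4) and 323 (related 3) for the 3 differences. Members called, out of the 5 tested, were then 3 for germ-free on Milli-Q water (1 in the whole fit with the filter), and the germ-free minus SPF difference of Cyba was 0.023 in place of -0.04. A stricter filter gave 11 genes and 0 related genes for zinc in SPF mice.

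Fitting only the groups compared, with fewer libraries to estimate the spread, gave 0 related genes for zinc in SPF mice, 3 genes and 0 related for zinc in germ-free mice (1483 and 14 in the whole fit), 2017 genes for antibiotics on zinc water, 2 members for germ-free on Milli-Q water, 14 genes, 0 related and 0 members for germ-free on zinc water, 249 genes and 4 related for antibiotics minus SPF, and 2 genes for germ-free minus antibiotics. Replicate numbers marked no shared origin, and over 10 same-numbered pairs the correlation of deviations ran from -0.333 to 0.38, with 4 over 0.1. With the replicate block, related genes for zinc in SPF mice were 0, genes for antibiotics on Milli-Q water 12, for germ-free minus SPF 1 and for germ-free minus antibiotics 15. Under the block the fold changes for antibiotics on zinc water turned to -0.024 for Noxo1, -0.070 for Cyba and, untested, -0.19 for Nos2. Titles number the germ-free Milli-Q libraries 1, 2 and 3, as used here, while the columns of the count table number them 1, 3 and 4, so the pairs and the block in germ-free mice depend on that choice.

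With library totals only, genes called were 1447 for zinc after antibiotics (related 13), 735 for zinc in germ-free mice (related 9), 1285 for zinc over the contexts (related 14), 612 for antibiotics on zinc water (related 7), 9333 for germ-free on Milli-Q water (related 71, members 3), 6308 for germ-free on zinc water (related 27, members 0) and 3 for germ-free minus antibiotics. Higher and lower calls then split as 152 and 1295 in place of 1335 and 1502 for zinc after antibiotics, 690 and 45 in place of 768 and 715 for zinc in germ-free mice, 313 and 972 in place of 1396 and 1464 over the contexts, and 452 and 160 in place of 622 and 550 for antibiotics on zinc water. Fold changes turned to -0.32 for Noxo1, -0.80 for Cyba and -0.34 for Rac1 for germ-free on Milli-Q water, and to -0.49 for Cyba, -0.034 for Rac1 and -0.37 for Duox2 on zinc water. The germ-free minus SPF difference turned to 0.31 for Cyba and 0.30 for Rac1, and the germ-free minus antibiotics difference to 0.17 for Noxo1 and 0.11 for Cyba. Those of Noxa1, untested, turned to 0.36 and 0.21.

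Leaving out 1 library at a time, genes called ranged from 5 (without SPF zinc replicate 2) to 37 (without SPF Milli-Q replicate 3) for zinc in SPF mice (related 0 to 1), from 1317 (without antibiotics Milli-Q replicate 2) to 2679 for zinc after antibiotics, and from 5 (without germ-free Milli-Q replicate 2) to 3436 (without germ-free zinc replicate 4) for zinc in germ-free mice (related 0 to 22). They ranged from 10 (without antibiotics Milli-Q replicate 2) to 83 (without SPF Milli-Q replicate 3) for antibiotics on Milli-Q water, where fold changes ran from -0.30 to 0.024 for Cyba, -0.090 to 0.10 for Rac1, -0.11 to 0.44 for Duox2 and -0.47 to 0.38 for Duoxa2. They ranged from 272 (without SPF zinc replicate 2) to 1058 for antibiotics on zinc water (related 3 to 12), with -0.045 to 0.13 for Noxo1, -0.12 to 0.27 for Cyba and -0.52 to 0.71 for Nos2. They ranged from 1661 (without germ-free Milli-Q replicate 2) to 3253 for germ-free on Milli-Q water (related 11 to 25, members 1 to 2), with -0.035 to 0.28 for Cyba and -0.57 to 0.28 for Duoxa2, and from 51 (without SPF zinc replicate 2) to 1573 (without germ-free zinc replicate 4) on zinc water (related 0 to 8, members 0 to 1), with -0.50 to 0.019 for Noxo1 and -0.051 to 0.35 for Cyba. For the differences of zinc effects the ranges were 0 to 21 (highest without SPF Milli-Q replicate 3) for antibiotics minus SPF, with -0.0028 to 0.41 for Cyba, 0 to 767 (highest without germ-free zinc replicate 4) for germ-free minus SPF (related 0 to 7, members 0 to 1), with -0.21 to 0.21 for Cyba and -0.15 to 0.043 for Rac1, and 0 to 362 (highest without germ-free Milli-Q replicate 1) for germ-free minus antibiotics (related 0 to 4). Low counts in the zinc libraries, 0 to 31 for Nos2 and 1 to 68 for Nox1, limit the precision of their fold changes on zinc water.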
